A study of Homo sapiens with 2 samples.

Results

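The genes described here are the eukaryotic translation initiation factors (eIFs) and elongation factors (eEFs). They were taken as the rows of the deposited table that give a single gene name starting with EIF or EEF, leaving out names starting with EIF2C, an older name of the Argonaute genes. This gave 57 genes of 12936 named genes, 50 initiation and 7 elongation factor genes, and all 57 averaged 1 RPKM or more over both libraries. The rule itself uses names only, and so does the split into 50 EIF and 7 EEF genes, called initiation and elongation factors here. A further 5 loci name an EIF or EEF gene together with another gene and are described apart.

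The values come from RNA-seq of A549, an established human lung adenocarcinoma line grown in DMEM with serum. The wild type library and the MYOCD knockdown library are the whole series, with 1 library in each group. MYOCD encodes myocardin, a coactivator of serum response factor, and the labels do not say by which construct or clone it was reduced. The sample title marks the second library as MYOCD-/- while its genotype label says knockdown. Doxycycline for 72 h is listed for both samples, although elsewhere the wild type is described as having had no treatment, so an effect of doxycycline and one of the knockdown cannot be told apart if it was given to only 1 of them. There is 1 library per group, hence no replicate spread and no test below. Read totals are not listed, so the depth is unknown. Levels are in RPKM, reads scaled both to the sequencing of each library and to how long the transcript is, and can be compared between genes. Pairs of values give the wild type library first. The log2 change is log2((knockdown RPKM + 1) / (wild type RPKM + 1)), and a gene is counted as higher or lower when it passes 1.5-fold on that scale, a log2 change of 0.58 in size.

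Translation of most messages starts when eIF4E binds the cap at the 5′ end, eIF4G bridges it to the helicase eIF4A and to eIF3, and the small ribosomal subunit scans to a start codon with the initiator tRNA carried by eIF2. eIF5 makes eIF2 hydrolyse its GTP at the start codon, eIF2B recharges eIF2 with GTP, and 4 kinases slow initiation under stress by phosphorylating eIF2. In elongation eEF1A delivers each tRNA and eEF2 moves the ribosome along. Many of these factors are themselves encoded by messages that start with a C and a run of pyrimidines, the terminal oligopyrimidine (TOP) start through which mTOR signalling controls their translation, and several of their introns hold small nucleolar RNA (snoRNA) genes.

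MYOCD itself was close to the floor of the table, at 0.881 RPKM in wild type and 0.400 RPKM in knockdown, so it checks the labels only weakly. The median over 14952 rows was 9.06 and 8.94 RPKM. The epithelial keratins KRT7, KRT8 and KRT18 had between 1395 and 1776 RPKM in the wild type library. The other 3 epithelial markers were far lower, CDH1 at 23.8 and 22.5 RPKM, KRT19 at 7.70 and 7.69 RPKM and EPCAM at 2.24 and 2.15 RPKM. Of 5 alveolar markers only NAPSA had a row, at 1.27 and 0.771 RPKM. Of 6 markers of blood, vessel and connective tissue cells, CD14 and COL1A1 had rows, at 3.13 and 3.30 RPKM and at 2.76 and 2.41 RPKM.

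Levels of these genes were close to equal in both libraries, and EIF5 differed most. EIF5 was 1.56 times as high in the knockdown library (39.2 and 61.3 RPKM). It was the 1 gene of 57 (1.75%) at least 1.5-fold higher, against 1.65% of the 12158 named genes that averaged 1 RPKM or more. None (0 of 57) was at least 1.5-fold lower, against 3.2% of those genes. The 12158 also include small RNA genes and loci naming several genes. Among named protein-coding genes, 2 of the 191 with a snoRNA gene inside and 95 of the 9981 without were at least 1.5-fold higher. At least 1.5-fold lower were 3 and 279 of these. In bulk RNA, fewer cells with a message and less message per cell cannot be told apart. The median log2 change of the 57 genes was 0.01, as was that of all named genes. Of the 57, 31 were above 0 and 26 below, and of the 12158 named genes 6332 were above 0 and 5826 below. The median size of the log2 change was 0.14 over the 57 genes and 0.15 over all named genes. At a smaller log2 change of 0.32 in size, 3 of 57 (5.26%) were higher (EIF5, EIF4G2 and EIF5AL1), against 7.99% of named genes, and 2 of 57 (3.51%) were lower (EEF1A2 and EIF4E3), against 10.6%. The share past 1.5-fold higher was near that of all named genes, and the other 3 shares were below it.

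**Figure D1:**
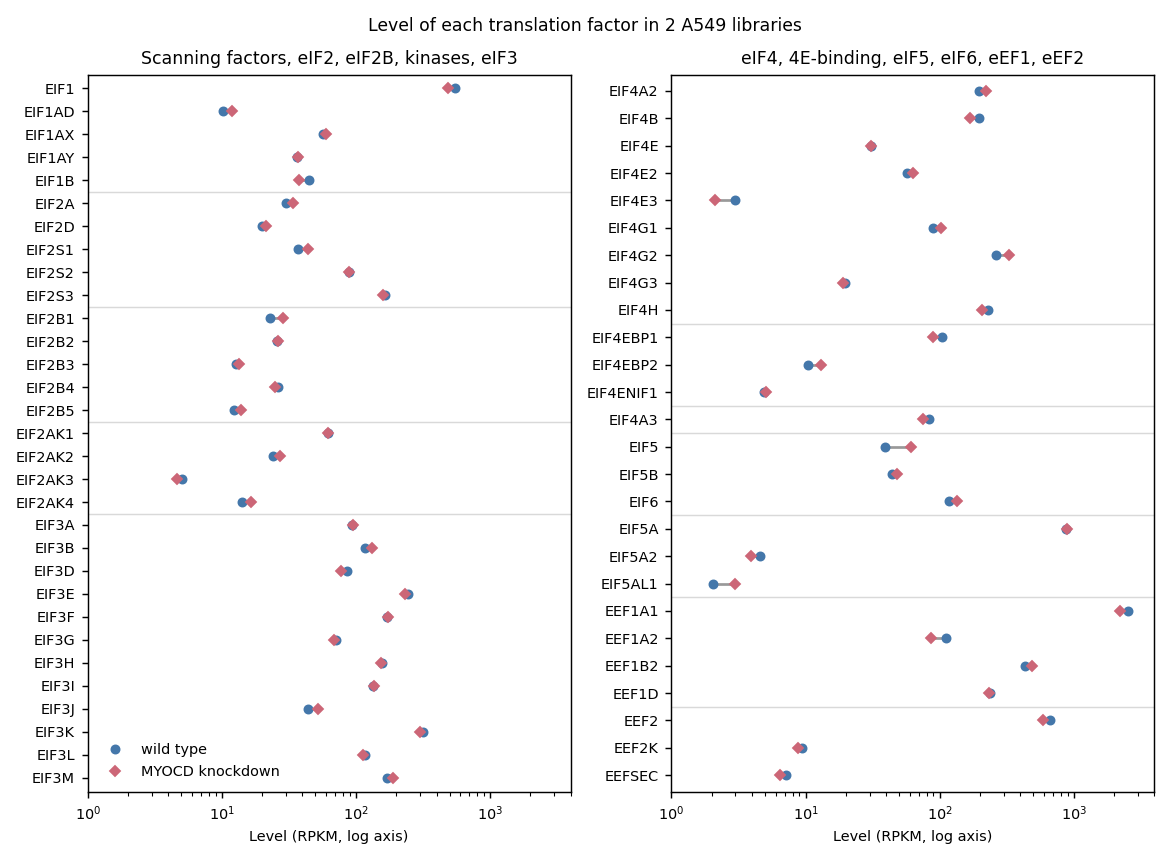
Level of each of the 57 genes in RPKM (log axis) in the wild type library (blue circles) and the MYOCD knockdown library (red diamonds), 1 library each, with grey lines joining the pair and pale lines between groups of factors. Levels run from 2.04 RPKM for EIF5AL1 to 2552 RPKM for EEF1A1 in the wild type library, and most pairs nearly overlap, while EIF5 is further apart at 39.2 and 61.3 RPKM.

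A scaling to equal library sums would shift every value. The summed RPKM of all rows was 1.15 times as high in the knockdown library, and rescaling by that factor moves the median of all named genes to -0.17, that of the 57 genes to -0.18 and the EIF5 change to 0.44, which no longer passes 1.5-fold. The named rows alone summed to 589490 and 592270 RPKM, so almost all of that difference lay in the 1909 rows with no gene name. Rescaling by the named rows moved the EIF5 change only to 0.62 and left the median of the 57 genes at 0.008. Centring on the median of all named genes left it at 0.004. Directions below are those of the deposited values. For the groups of factors, the snoRNA hosts and the genes that act with the factors, medians with equal sums stand beside them where the sign differs. Sets split by pyrimidine start and sets compared with the snoRNA hosts are given on the deposited scale only.

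Sequences are shown for 2 features that the results refer to, the starts of the messages and the small RNA genes inside the loci. The first set gives 22 bases around annotated starts (RefSeq, GRCh38.p14), 10 before the start and 12 from it on. Capitals mark the run of C and T from the start where the start is a C followed by at least 4 further C or T letters, a match in letters and not a mapped start in these cells. The first 6 are factors with such a start, and the 2 starts of EIF5 show the contrast.
EEF1A1 (chr6:73521021-73521042, minus strand): cgtgaacgttCTTTTTCgcaac
EEF2 (chr19:3985452-3985473, minus strand): cgtcagcgttCTCTTCCgccgt
EEF1B2 (chr2:206159885-206159906, plus strand): ctcttcgggtCCTTTTTCCTCT
EIF4B (chr12:53006446-53006467, plus strand): tcatccgggtCTTTTgcgttct
EIF3F (chr11:7987327-7987348, plus strand): cttccgcctcCTTCTTTCTCga
EIF4A2 (chr3:186783567-186783588, plus strand): gcgccgctgtCTTTTCagtcgg
EIF5 (chr14:103334227-103334248, plus strand): ggcgttgttcagtcagagcgag
EIF5 (chr14:103334878-103334899, plus strand): ggcacccctcggccgtgtgtcg

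The second set gives small RNA genes that lie inside factor loci and had rows of their own in the table. SNORA28 (chr14:103337849-103337974, plus strand) lies inside EIF5 and SNORA19 (chr10:119060011-119060138, minus strand) inside EIF3A, outside every annotated exon of these genes (GENCODE release 29, GRCh38). Both belong to the H/ACA class, which guides pseudouridylation of other RNAs, and capitals mark the first match to ANANNA on this strand between bases 51 and 80, the letters of the H box, and the last ACA near the 3′ end. These are matches in letters and not mapped boxes.
SNORA28: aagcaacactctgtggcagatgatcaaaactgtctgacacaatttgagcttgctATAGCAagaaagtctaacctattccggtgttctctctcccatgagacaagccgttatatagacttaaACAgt
SNORA19: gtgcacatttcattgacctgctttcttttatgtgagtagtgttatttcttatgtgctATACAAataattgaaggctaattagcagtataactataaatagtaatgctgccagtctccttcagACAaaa
MIR590, in EIF4H on chromosome 7 and also outside its annotated exons, yields the mature miR-590-5p and miR-590-3p (RefSeq, GRCh38.p14), with the seed (bases 2 to 8) in capitals.
hsa-miR-590-5p (chr7:74191213-74191234, plus strand): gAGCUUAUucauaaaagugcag
hsa-miR-590-3p (chr7:74191253-74191273, plus strand): uAAUUUUAuguauaagcuagu

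Start codon selection begins with eIF1 and eIF1A, which hold the scanning ribosome open until a start codon is found. EIF1 was among the most abundant factors, with 550 and 488 RPKM, a log2 change of -0.17. Its paralogue EIF1B was lower in level and had 44.9 and 37.5 RPKM, so the log2 changes of the pair had the same sign, -0.17 and -0.26. EIF1AX and EIF1AY, the X- and Y-linked copies of eIF1A, had 56.7 and 60.0 RPKM and 36.4 and 36.8 RPKM. Their coding sequences are nearly alike, so how reads were divided between them is uncertain. EIF1AD, an eIF1A-domain protein that is no subunit of the scanning complex, had 10.2 and 12.01 RPKM. The median of these 5 genes was 0.02, or -0.18 with equal sums.

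The eIF2 trimer brings the initiator tRNA. Its subunits did not differ evenly: EIF2S1, the alpha subunit that the kinases phosphorylate, had 36.9 and 44.1 RPKM (log2 change 0.25). EIF2S2, the beta subunit, had 88.8 and 89.2 RPKM, and EIF2S3, the gamma subunit that binds GTP and tRNA, had 165 and 161 RPKM. In both libraries the gamma subunit had the highest and the alpha subunit the lowest level of the trimer. The exons of EIF2S1 overlap those of ATP6V1D on the opposite strand (26.9 and 27.7 RPKM), and without strand information reads of the overlap cannot be told apart. EIF2A and EIF2D, which can deliver tRNA to ribosomes without eIF2, had 30.3 and 33.8 RPKM and 20.03 and 21.4 RPKM. Of these 5 genes 4 were above 0, with a median of 0.09, or -0.10 with equal sums.

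eIF2B is the exchange factor for eIF2 and the step that phosphorylated eIF2 blocks. Its 5 subunit genes had similar levels per length, from 12.2 RPKM for EIF2B5 to 26.1 for EIF2B4 in the wild type library. EIF2B1, the regulatory alpha subunit, differed most, with 23.0 and 28.7 RPKM (log2 change 0.30). Its exons overlap those of GTF2H3 on the opposite strand, which had 23.7 and 28.1 RPKM, and those of DDX55, which had 17.0 and 16.8 RPKM. The catalytic subunit gene EIF2B5 had 12.2 and 13.9 RPKM. The other subunits were nearer to equal, EIF2B2 at 25.7 and 26.5 RPKM, EIF2B3 at 12.8 and 13.5 RPKM and EIF2B4 at 26.1 and 24.999 RPKM. The median was 0.07, with 4 of 5 above 0, or -0.11 with equal sums.

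The eIF2 kinases sense different stresses, and EIF2AK1 (HRI), which senses heme deficiency and mitochondrial stress, was the most abundant with 62.5 and 61.7 RPKM. It made up 59.1% and 56.2% of the summed level of the 4 kinases. EIF2AK2 (PKR), activated by double-stranded RNA, had 24.0 and 27.1 RPKM, and EIF2AK4 (GCN2), activated by amino acid shortage, had 14.2 and 16.4 RPKM. EIF2AK3 (PERK), the kinase of the endoplasmic reticulum, had the lowest level, 5.05 and 4.61 RPKM. The order of the kinases was the same in both libraries. Their median was 0.07, with 2 above and 2 below 0, or -0.12 with equal sums. With a minimum mean of 5 RPKM, which leaves out EIF2AK3, it was 0.17.

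eIF3 is the largest initiation factor and the platform on which the other factors assemble. Of its subunits 12 were measured in rows of their own, with a median log2 change of -0.003, 6 above and 6 below 0, and a sum of 1726 and 1728 RPKM. EIF3K was the most abundant, with 319 and 302 RPKM, and EIF3J, a loosely bound subunit, the least, with 44.1 and 51.9 RPKM. The RNA levels thus spanned 7.23-fold in the wild type library and 5.82-fold in the knockdown library. Most subunits occur once in the assembled complex, but that is a count of proteins, which were not measured here. EIF3J also had the highest log2 change of the complex (0.23), and its exons overlap SPG11 on the opposite strand (5.84 and 6.33 RPKM). EIF3B and EIF3M followed with 117 and 133 RPKM and 171 and 190 RPKM. EIF3B is a core subunit that binds EIF3A, and EIF3A, the largest subunit, had 93.7 and 96.1 RPKM. The lowest log2 change, -0.13, was that of EIF3D, which can itself bind the cap, with 85.5 and 78.2 RPKM. EIF3E, EIF3F, EIF3G, EIF3H, EIF3I and EIF3L had log2 changes from -0.09 to 0.03. In the wild type library they had 247, 172, 71.5, 156, 134 and 117 RPKM, and in the knockdown library 232, 174, 68.3, 153, 137 and 113 RPKM. With equal sums the eIF3 median was -0.20, and 11 of 12 were below 0, as were 9492 of the 12158 named genes.

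The cap-binding and helicase factors spread more widely than eIF3. EIF4G2 (DAP5), a relative of eIF4G that lacks the eIF4E binding site and supports cap-independent initiation, had 261.6 and 328 RPKM, a log2 change of 0.32. Of the 390 named genes within 2-fold of its mean level, 7.69% were at least as far above 0. EIF4G2 spans chromosome 11 from 10797050 to 10809110 on the minus strand, and its exons overlap those of CTR9 on the opposite strand (17.5 and 19.5 RPKM). The scaffold EIF4G1 had 89.3 and 102 RPKM and EIF4G3 19.7 and 18.9 RPKM, so EIF4G2 made up 70.6% and 73.1% of the summed level of this family. EIF4A2, a helicase, was also higher in value in the knockdown library, with 197 and 221 RPKM. The cofactors of the helicase went the other way, with EIF4B at 198 and 169 RPKM (log2 change -0.23) and EIF4H at 230 and 208 RPKM. The cap-binding gene EIF4E was near equal, with 30.7 and 30.6 RPKM. EIF4E2, a competitor for the cap that represses translation, was more abundant than EIF4E in both libraries, with 57.4 and 62.8 RPKM. EIF4E3 was near the floor of the measurement, with 2.99 and 2.11 RPKM. Its log2 change of -0.36 became -0.17 with a pseudocount of 5 and -0.48 with 0.1. Over the 9 genes the median was -0.01, with 4 above and 5 below 0, or -0.20 with equal sums.

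EIF4EBP1 and EIF4EBP2 encode repressors that hold eIF4E until mTOR phosphorylates them, and neither passed a log2 change of 0.32 in size. EIF4EBP1 had 104 and 88.7 RPKM, a log2 change of -0.23, and EIF4EBP2 had 10.4 and 13.0 RPKM, a log2 change of 0.29. With equal sums the values were -0.42 and 0.11. Among named genes within 2-fold of their mean levels, 9.55% lay at least as far below 0 as EIF4EBP1 and 9.27% at least as far above 0 as EIF4EBP2. The level of EIF4EBP1 was 9.96 times that of EIF4EBP2 in the wild type library and 6.82 times in the knockdown library. Relative to EIF4E itself, EIF4EBP1 was at 3.39 and 2.90 times its level. EIF4ENIF1, which carries eIF4E into the nucleus, was low and near equal with 4.90 and 5.08 RPKM. The median of these 3 genes was 0.04, or -0.12 with equal sums. EIF4A3, a helicase of the exon junction complex that shares its name with the eIF4A proteins but acts on spliced RNA, had 83.2 and 75.6 RPKM.

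**Figure D2:**
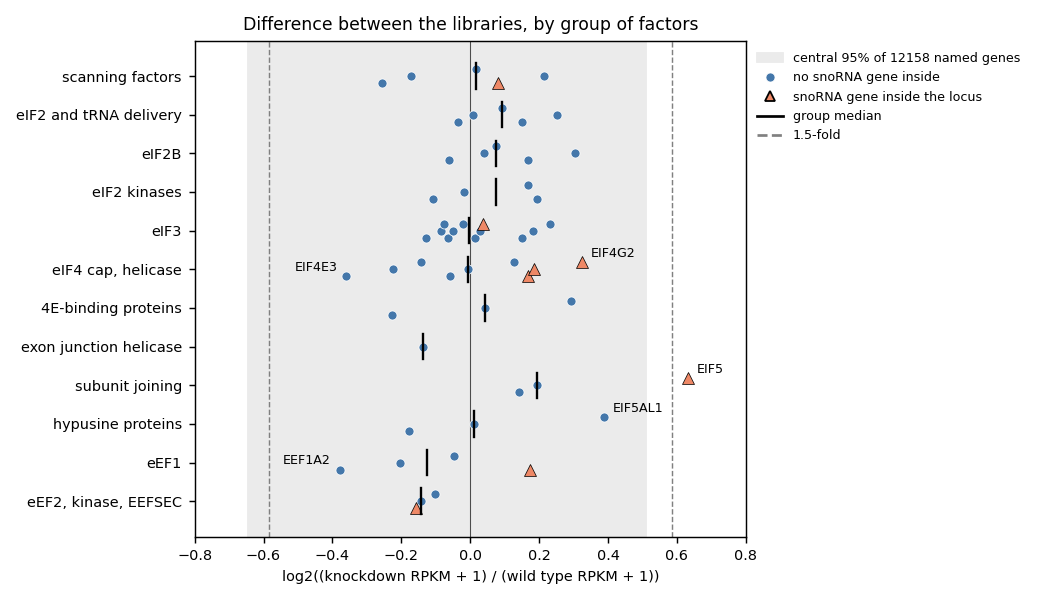
Log2 change of each of the 57 genes (x axis, knockdown over wild type with 1 RPKM added to both), by group of factors (rows), with the median of each group as a black bar, genes whose locus holds a snoRNA gene as triangles, dashed lines at 1.5-fold and the central 95% of 12158 named genes in grey. EIF5 at 0.63 is the 1 gene beyond a dashed line, and 7 of the 8 triangles lie above 0 (2 of 8 with equal sums).

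EIF5 lies on chromosome 14 from 103333544 to 103345025 on the plus strand (GENCODE release 29, GRCh38) and encodes the GTPase-activating protein of eIF2. EIF5 had 39.2 RPKM in the wild type and 61.3 RPKM in the knockdown cells, a log2 change of 0.63, and its rank by level among the 57 genes went from 35 to 31. Of the 2716 named genes within 2-fold of its mean level, 35 (1.29%) were at least as far above 0. No other annotated gene has exons over those of EIF5, while 35 of the 57 genes have such an overlap, 33 of them with a gene on the opposite strand. Pseudogenes named after it number 2 in GENCODE, and 23 of the 57 genes have at least 1. SNORA28, inside an intron, was listed at 0 and 19.5 RPKM, so the snoRNA and its host were both higher in the knockdown library. Multiplied by its annotated length, the SNORA28 level is 2.46 RPM, reads scaled to the library but not to length. The difference in EIF5 is 12.6 RPM with the shortest annotated coding transcript of 569 bases and 131 with the longest of 5945 bases. The length used for the deposited values is unknown, and whether reads of SNORA28 entered the EIF5 value was not tested. With a pseudocount of 5 the EIF5 change was 0.584, just under the 1.5-fold size, and with equal sums 0.44. The other factors of subunit joining were nearer to 0. EIF5B, the GTPase that joins the large ribosomal subunit, had 43.8 and 48.4 RPKM, and EIF6, which keeps the subunits apart, had 117 and 134 RPKM. Over EIF5, EIF5B and EIF6 the median was 0.19, or -0.005 with equal sums.

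EIF5A is the protein that carries hypusine, a modified lysine made by DHPS and DOHH, and it helps the ribosome past stretches such as consecutive prolines. EIF5A had the second highest level of the 57 genes, below the locus of EEF1G and TUT1, and was near equal at 884 and 889.8 RPKM. EIF5A2, its paralogue, had 4.58 and 3.93 RPKM, and EIF5AL1 had 2.04 and 2.98 RPKM. The log2 change of EIF5AL1, 0.39, became 0.18 with a pseudocount of 5, under the size of 0.32, and 0.52 with 0.1. EIF5AL1 is a near-identical copy of EIF5A, so its value is uncertain, and EIF5A made up 99.3% and 99.2% of the summed level of the 3 genes. DHPS, which makes the first step of hypusine, was lower at 42.1 and 27.3 RPKM, a log2 change of -0.61 that passed 1.5-fold, and DOHH, the second enzyme, had 8.47 and 7.87 RPKM. The exons of DHPS overlap WDR83 on the opposite strand, which had 8.32 and 5.97 RPKM, and a further annotated gene on its own strand. The median of the hypusine proteins EIF5A, EIF5A2 and EIF5AL1 was 0.01, or -0.19 with equal sums.

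Elongation factors held 3 of the 5 highest levels among the 57 genes, and 6 of the 7 were lower in value in the knockdown library. Their median log2 change was -0.14. Of the 12158 named genes 5826 were below 0. With equal sums all 7 factors were below 0, as were 9492 of the 12158 named genes. EEF1A1, which delivers tRNA to the ribosome, had the highest level of all 57 genes, with 2552 and 2215 RPKM, a log2 change of -0.20. It made up 27.2% and 24.5% of their summed level. Only 70 named genes lie within 2-fold of its mean level, and 9 of these (12.9%) were at least as far below 0. EEF1A2, the form typical of muscle and neurons and often raised in tumours, had 112 and 86.2 RPKM, and its log2 change of -0.38 was the lowest of the 57. Of the 1414 named genes within 2-fold of its level, 3.96% were at least as far below 0. EEF2, which drives translocation, had 664 and 595 RPKM, and EEF2K, the kinase that inactivates it, had 9.44 and 8.73 RPKM. EEF1D, an exchange factor subunit, had 239 and 232 RPKM, and EEFSEC, which inserts selenocysteine, had 7.17 and 6.40 RPKM. EEF1B2, the catalytic exchange factor for eEF1A, went the other way, with 434 and 489 RPKM (log2 change 0.17). The sum over the 7 genes was 4019 and 3632 RPKM, a ratio of 0.904, while that of the 50 genes with EIF names was 5351 and 5394 RPKM, a ratio of 1.01. These sums follow names and not function: the EIF names include EIF5A, the eIF2 kinases and the 4E-binding proteins, and the EEF names include the kinase EEF2K. EEF1A1 alone carries most of the first sum, and GENCODE annotates 39 pseudogenes named after it, none with a row in the table.

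**Figure D3:**
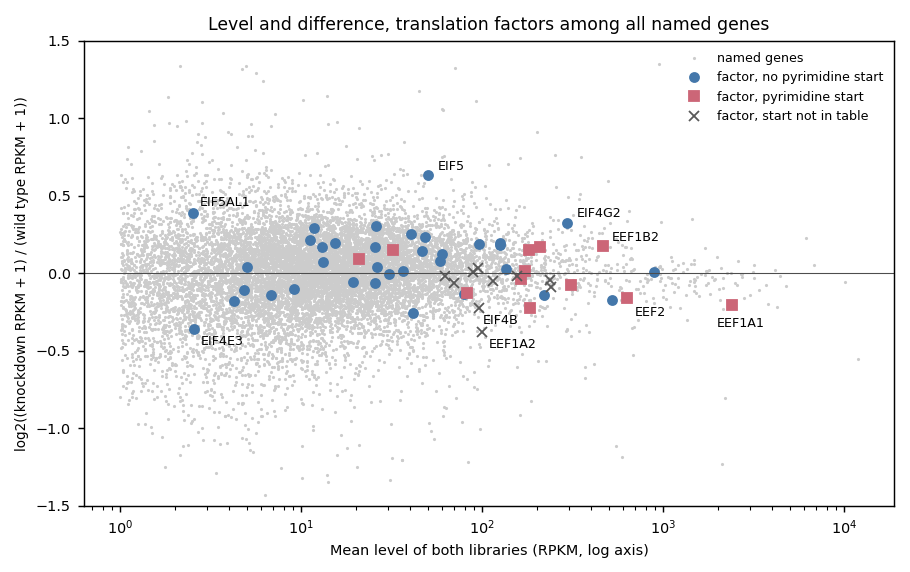
Log2 change (y axis, limited to 1.5 in size, which leaves out 107 of the named genes) against the mean level of both libraries in RPKM (log axis). Small grey points are 12158 named genes, circles are factors with no pyrimidine start, squares are the 12 factors with one, and crosses are the 10 factors whose start is not in the table used. The factors lie inside the cloud of genes of like level, with EIF5 near its upper edge and EEF1A2 near its lower edge.

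A pyrimidine start was a feature of some members that the choice of genes did not use. Of the 57 genes 47 had a start in the RefSeq table, and 12 of these (25.5%) had at least 1 start with a C followed by 4 further C or T letters. Such a start was held by 5.14% of the 27305 genes listed there and by 4.07% of the 35116 starts. Many of these listed genes had no row here. A nearer background is the named genes averaging 1 RPKM or more, of which 626 had such a start and 7603 did not. Besides EEF1A1, EEF2, EEF1B2, EIF4B, EIF3F and EIF4A2, whose starts are printed above, the genes were EIF2A, EIF2D, EIF2S3, EIF3D, EIF3K and EIF3M. The 12 genes had a median level of 184 RPKM in the wild type library, against 30.7 RPKM for the 35 without. Their log2 changes had a median of -0.01, with 6 above and 6 below 0, and ran from -0.23 for EIF4B to 0.17 for EEF1B2. For the 35 genes without such a start the median was 0.07, with 23 above and 12 below 0. The 10 genes with no listed start, which could belong to either set, had a median of -0.05, with 2 above and 8 below 0. Their median level in the wild type library was 108 RPKM. Over all named genes in the table the medians were -0.02 with the start (626 genes) and 0.02 without it (7603 genes). Across the 57 genes, Pearson's r between log2 mean level and log2 change was -0.13 and Spearman's rho -0.18. These describe genes of the same libraries, which are not independent replicates.

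Of the 57 loci, 8 hold at least 1 snoRNA gene on their own strand in GENCODE release 29: EEF1B2, EEF2, EIF1AX, EIF3A, EIF4A2, EIF4G1, EIF4G2 and EIF5. Of these 7 were above 0 (2 with equal sums), with a median log2 change of 0.17, or -0.03 with equal sums, and EEF2 at -0.16 was the exception. The 47 loci with no small RNA gene had a median of 0.01, with 24 above and 23 below 0. Among all named protein-coding genes, the 191 with a snoRNA gene inside had a median of 0.05 and 62.3% above 0, and the 9981 without had 0.01 and 52.0%. The values of these comparison sets are on the deposited scale, so they stand beside 0.17 and not beside -0.03. EIF5, the only factor past 1.5-fold, is itself a host, so leaving out the loci with a small RNA gene leaves none past it by construction. The median of the cap-binding and helicase group was then -0.12. That median rests on EIF4B, EIF4E, EIF4E2 and EIF4E3 only, the last of them near the floor.

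The small RNA genes themselves were listed in their own rows for 4 loci. SNORD97, inside EIF4G2, had 49.7 and 14.1 RPKM while its host, whose annotated exon it overlaps, was at 261.6 and 328 RPKM. SNORA19, inside EIF3A, was listed at 33.6 RPKM and at 0, with the host at 93.7 and 96.1 RPKM. SNORA28 was the case in which both were higher in the knockdown library, at 0 and 19.5 RPKM. MIR590, inside EIF4H, was listed at 0 and 117.7 RPKM, with the host at 230 and 208 RPKM. These genes are 97 to 142 bases long, so their values in RPM are far smaller. The largest of them, 117.7 RPKM for MIR590, is 11.4 RPM. Since the depth is unknown, the number of reads behind these values is unknown too. Some of the remaining hosts hold several. EIF4A2 holds SNORD2, SNORA81, SNORA63, SNORA4, a snoRNA named RF00092 and MIR1248, and EEF1B2 holds SNORD51, SNORA41 and RF00134. EEF2 holds SNORD37 and EIF4G1 holds SNORD66. EIF1AX holds RF00493 and RF00494, EIF3A also holds RF00413, and EIF4G3 holds MIR1256.

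**Figure D4:**
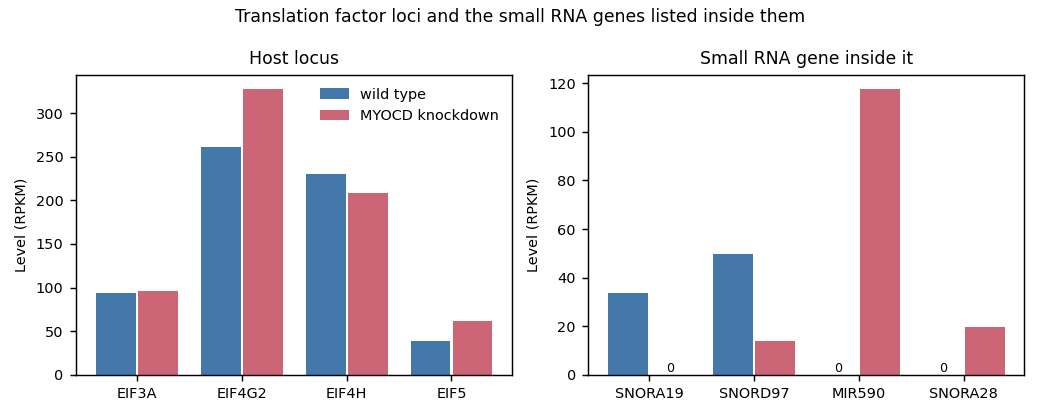
Level in RPKM (linear axes from 0) of 4 factor loci (left) and of the small RNA genes listed inside them (right), for the wild type library (blue) and the MYOCD knockdown library (red), 1 library each, with 0 written where a gene is listed at 0. SNORD97 is lower in the knockdown library at 14.1 RPKM while its host EIF4G2 is higher at 328 RPKM.

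The 5 loci that name several genes hold some of the best known factors, and their values belong to the locus and not to 1 gene. The locus of EEF1G, the gamma subunit of the eEF1 exchange factor, and TUT1 had 1239 and 1166 RPKM. EIF4A1, the main helicase of the cap complex, shares a locus with SENP3 at 654 and 631 RPKM. Inside EIF4A1, SNORA48 was listed at 44.3 and 75.1 RPKM, SNORD10 at 80.1 and 41.8, and SNORA67 at 132 and 175. EEF1E1, a protein of the multisynthetase complex, lies with MUTED and TXNDC5 at 126 and 152 RPKM, and EIF4EBP3 with ANKHD1 at 25.2 and 21.0 RPKM. The near-identical copies EIF3C and EIF3CL shared a row at 0.872 and 1.14 RPKM, far below every other eIF3 subunit. How reads that match both copies were counted is unknown, so this row is no measure of the subunit.

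Genes that act with these factors were taken from a list of 32, of which 31 were measured in rows of their own. Their median log2 change was 0.09, or -0.11 with equal sums. Of the 12158 named genes 6332 were above 0, or 2666 with equal sums. Of the 31 genes, 23 were above and 8 below 0, or 6 and 25 with equal sums. None was at least 1.5-fold higher (0 of 31, against 1.65% of all named genes), and 1 of 31 (3.23%), DHPS, was at least 1.5-fold lower, against 3.2%. GSPT2, a release factor gene, had the highest log2 change at 0.37, with 6.18 and 8.28 RPKM, and its abundant relative GSPT1 had 42.8 and 48.7 RPKM. ETF1, the factor that recognises stop codons, had 59.5 and 68.6 RPKM. RPTOR, the subunit of mTORC1 that binds the 4E-binding proteins, had 13.1 and 16.4 RPKM, and MTOR had 11.3 and 13.1 RPKM. MLST8, a further subunit of mTORC1, had 23.0 and 20.5 RPKM, and RPS6KB1, a kinase that mTORC1 activates, had 19.97 and 19.1 RPKM. PPP1R15A (GADD34), which directs the phosphatase that reverses eIF2 phosphorylation, was lower in value at 15.3 and 12.3 RPKM, while its constitutive relative PPP1R15B had 19.5 and 21.0 RPKM. PABPC1, the main poly(A)-binding protein that contacts eIF4G, had 470 and 487 RPKM, and the TOP message TPT1 had 1256 and 1314 RPKM.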

How the data were processed

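The deposited table gives 1 value per locus and library in RPKM, made by the authors before deposit. The submitters' processing notes name TopHat2 (2.0.10), Cufflinks (2.2.1) and, without saying what each was for, the builds BDGP5 and GRCh38.p12. Which annotation and filters were used, and whether strand was, the sources used here do not say. Here, 102 names found on several rows were summed and 1909 unnamed rows were left out. The background is the 12158 named genes averaging 1 RPKM or more. No depth could be read from low values: of 1602 named loci under 2 RPKM but above 0 in each library, no more than 21 shared a log2 ratio to within 0.01.

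The members, groups and lists were chosen with earlier results of these data known. Every member is given both values, with more room for members past 1.5-fold, the extremes of each group and hosts of small RNA genes. The pyrimidine starts, exon overlaps, genes of like level and single-gene alternatives were chosen after the values were seen. All 57 genes matched GENCODE release 29 and 47 matched the RefSeq starts. Calculations used pandas 2.3.3 and numpy 2.4.6 under Python 3.11.15.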

Additional observations from a re-analysis of the deposited data

How the results depend on the processing

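Scaling was the choice that moved most values. With libraries rescaled to equal sums over all rows, the count of genes at least 1.5-fold higher went from 1 to 0 and the median of the 57 genes from 0.01 to -0.18. The medians of eIF2 and tRNA delivery, eIF2B, the eIF2 kinases, eIF3, the cap and helicase factors, the 4E-binding proteins, eEF1 and the snoRNA hosts became -0.10, -0.11, -0.12, -0.20, -0.20, -0.12, -0.32 and -0.028. This follows from the scaling itself, which lowers every value by about 0.20 before the pseudocount. The count of higher genes was also 0 with a pseudocount of 5 and at 2-fold. With loci holding a small RNA gene left out it was 0 by construction, since EIF5 is one of them. A size rule of 0.32 on the log2 scale gave 3 higher and 2 lower, against 1 and 0. Leaving out loci with a small RNA gene moved the cap and helicase median to -0.12, with only EIF4B, EIF4E, EIF4E2 and EIF4E3 left. The EIF5 change was 0.584 with a pseudocount of 5 and 0.44 with equal sums. Centring on the median of all named genes, equal sums over named rows and no filter on low values moved none of the 19 values by 0.1 or more, nor did a minimum mean of 5 RPKM for the 17 it could give, although the eIF2 kinase median went from 0.07 to 0.17. These 19 are the 2 counts, 9 medians and 8 single genes, the last added after the data were seen. With 1 library per group no library could be left out and no paired analysis was possible because each group has a single sample.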

Other observations

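The cytosolic ribosomal protein genes, many of whose messages share the TOP start with translation factors, were near equal in both libraries. The set was taken by name, so it includes the paralogues RPL7L1, RPL22L1, RPL26L1, RPL39L and RPS27L. Over 80 such genes the median log2 change was -0.03, with 31 above and 49 below 0. The median size of the change was 0.05, against 0.14 for the 57 translation factors. Their median levels in the wild type library also differed, 1172 RPKM against 62.5 RPKM, and the sizes were not compared at like level. With equal sums the median was -0.23 and 77 of 80 were below 0, as were 9492 of the 12158 named genes. The lowest was RPL3 at 1167 and 1005 RPKM, and the highest was RPL26L1 at 54.7 and 67.3 RPKM. Of 65 of these genes in the RefSeq start table, 46 (70.8%) had a C followed by at least 4 further C or T letters at an annotated start, against 25.5% of the translation factors. None of the 80 passed 1.5-fold in either direction, against 1.65% of all named genes at least that much higher and 3.2% lower. Ribosomal protein genes have many pseudogenes, and how reads of such copies were counted is unknown.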
